A study of Mus musculus with 4 samples.

Results

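Basement membranes are thin sheets of extracellular matrix under epithelia and around vessels, and 10 genes that code for their proteins or for close partners are described here in a mouse liver cancer line, Hepa 1-6 (hepatocellular carcinoma). They are the collagen IV chains Col4a1 (ENSMUSG00000031502) and Col4a2 (ENSMUSG00000031503), nidogen 1 (Nid1, ENSMUSG00000005397), the laminin chains Lamc1 (ENSMUSG00000026478), Lamb1 (ENSMUSG00000002900), Lama1 (ENSMUSG00000032796) and Lama5 (ENSMUSG00000015647), perlecan (Hspg2, ENSMUSG00000028763), fibronectin (Fn1, ENSMUSG00000026193) and Sparc (ENSMUSG00000018593). They were taken by Ensembl ID from a count table of 53465 genes. The group was chosen on measured values: Col4a2 had been singled out for its higher counts with the Usp5 guide than with the control guide, in the inputs and in the immunoprecipitates, and the others were set beside it. All values of the Usp5 guide over control are therefore descriptions, with no test. Of the 10 genes, 9 had reads in every library and passed the filter of a mean of at least 1 count-per-million (CPM), as did 12927 genes in all. Lama1 had 0 reads in all 4 libraries.

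The study compared Hepa 1-6 cells carrying a control guide, labelled wild type, with cells in which a guide was directed at Usp5, the gene of a deubiquitinating enzyme, labelled a knockdown. Input RNA came from a share of each lysate, and an antibody to YTHDF1, which reads N6-methyladenosine on mRNAs in the cytoplasm, precipitated RNA from the remainder (RNA immunoprecipitation, RIP). Each of the 4 combinations was sequenced as 1 library, with between 29898171 and 33941019 counts. Whether the cells with a guide were a pool or 1 clone is not given in the sources used here. Each guide gave 1 lysate, so input and RIP of a guide are not independent cultures, and no difference between the guides has a replicate check. The other IDs of the table were not paired with gene names, so the level of Usp5, that of Ythdf1, hepatocyte markers, markers of other cell types and the remaining matrix genes were not analysed here. No precipitate with a control antibody was used here.

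Collagen IV is secreted as trimers of alpha chains, and the trimer most tissues make joins the products of Col4a1 and Col4a2. Laminins are trimers of an alpha, a beta and a gamma chain, and nidogen and perlecan tie the laminin and collagen IV networks together. In the liver, hepatocytes secrete fibronectin into plasma, while a continuous basement membrane is missing along the normal sinusoid. Col4a1 and Col4a2 lie head to head and are transcribed away from a shared start region, so that the levels of the pair can be read against each other.

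The start region of the pair is shown because it is what these genes have in common beyond their products. RefSeq places Col4a1 on the minus strand of chromosome 8 (GRCm38.p6, the same assembly as mm10; 11198423 to 11312889) and Col4a2 on the plus strand (11312805 to 11449287). The RefSeq windows run from 250 bases before to 50 bases after a start, at chr8:11312777-11313076 (minus strand) for Col4a1 and chr8:11312555-11312854 (plus strand) for Col4a2. Both are written from 5′ to 3′ on the strand of their gene, and capitals mark the 78 bases that the windows share, which read as reverse complements.
Col4a1: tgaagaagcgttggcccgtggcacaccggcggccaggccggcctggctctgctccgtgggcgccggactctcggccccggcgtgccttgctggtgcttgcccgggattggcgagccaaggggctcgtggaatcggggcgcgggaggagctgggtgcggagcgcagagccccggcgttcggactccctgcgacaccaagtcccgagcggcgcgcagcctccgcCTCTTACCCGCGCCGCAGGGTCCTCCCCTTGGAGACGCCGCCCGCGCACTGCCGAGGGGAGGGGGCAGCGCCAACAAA
Col4a2: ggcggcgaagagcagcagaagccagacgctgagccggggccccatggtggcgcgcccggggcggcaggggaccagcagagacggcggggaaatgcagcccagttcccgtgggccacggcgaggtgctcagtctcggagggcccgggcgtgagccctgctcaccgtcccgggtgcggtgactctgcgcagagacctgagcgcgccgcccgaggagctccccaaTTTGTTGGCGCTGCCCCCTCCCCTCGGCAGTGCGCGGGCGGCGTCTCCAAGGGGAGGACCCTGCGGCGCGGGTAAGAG
The start sites used for these windows, 11312826 for Col4a1 and 11312805 for Col4a2, are the ends of a stretch of 22 bases, so transcripts from these starts overlap; the annotated genes overlap by 85 bases. How the counting treated strand is not given in the sources used here, and reads from this overlap could not be told apart between the genes. RefSeq also lists the long non-coding RNAs Gm15418 and Gm32709 within or across Col4a1 and Gm46030 within Col4a2.

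Both windows were rich in G and C, at 74.0% for Col4a1 and 73.7% for Col4a2, beside a median of 52.7% over 32851 RefSeq windows of the same length. Letters of known promoter elements were searched on both strands. The shared stretch held 1 match to the CTC box, a pyrimidine-rich element described in collagen IV promoters (searched as CCCTCCCC), which 10.8% of all windows held. It also held 1 match to the GC box (searched as GGGCGG, in 35.7% of all windows). Each window had 1 CCAAT (in 37.4% of all windows), which was not wholly within the shared stretch, and neither had TATAAA (in 13.6%). Of the other members, Nid1, Lamb1, Lama5, Hspg2 and Sparc had a window in this table, and CCCTCCCC was found in those of Nid1 and Lama5. GGGCGG was found in those of Nid1, Lamb1, Lama5 and Hspg2, and CCAAT in those of Nid1 and Lamb1. The shares are for whole windows, which are longer than the shared stretch and had a lower median of G and C than the pair's windows. A match is only a string of letters and was not tested as a site.

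The counts of both collagen IV genes were higher with the Usp5 guide, before and after precipitation. Col4a1 was read 3418 times in control input and 7225 times in Usp5-guide input, or 119.8 and 235 CPM after normalisation. In the RIP libraries it had 6055 reads with the control guide and 9560 with the Usp5 guide, or 169.7 and 302 CPM. Col4a2 had 769 and 2283 reads in the control and Usp5-guide inputs (26.9 and 74.2 CPM) and 1813 and 3267 reads in the RIP libraries (50.8 and 103 CPM). For both genes the control input was the lowest library and the Usp5-guide RIP the highest, and each Usp5-guide library lay above both control-guide libraries. Together the pair held 146.7 CPM in the control input and 309 CPM in the Usp5-guide input. In bulk RNA, fewer cells with a transcript and less transcript per cell cannot be told apart.

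**Figure D1:**
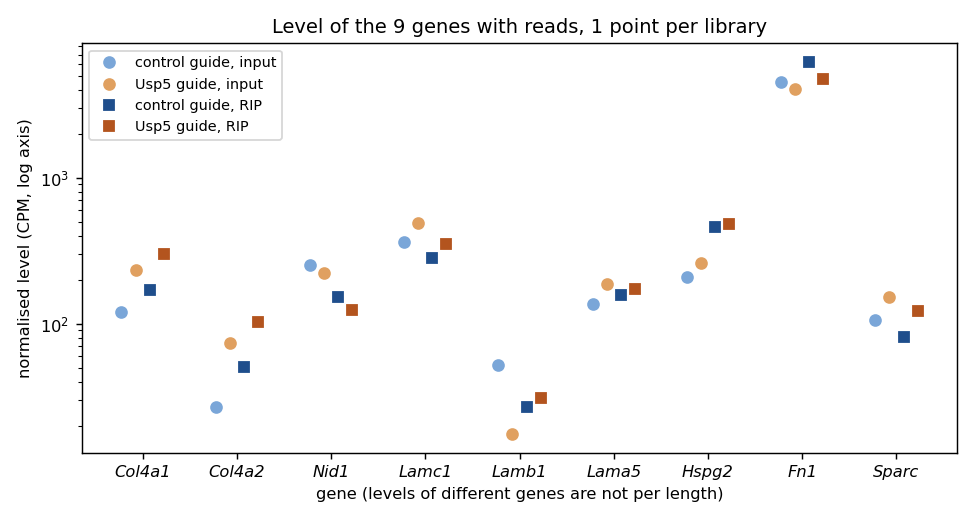
Normalised level (CPM, log axis) of the 9 genes with reads in each of the 4 libraries; circles are inputs, squares are RIP libraries, and colours give the guide. Col4a1 and Col4a2 are higher with the Usp5 guide in both fractions, Hspg2 separates RIP (463 and 481 CPM) from input (209.9 and 261 CPM), and Lamb1 has its highest and lowest values in the 2 inputs.

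On the log2 scale the Usp5 guide over control was 0.97 for Col4a1 in the inputs, a 1.96-fold difference just under the 2-fold size used for a call; with library totals in place of TMM factors it was 1.04 and called. The value in the RIP libraries was 0.83, or 1.78-fold. For Col4a2 it was 1.46 in the inputs (2.75-fold) and 1.02 in the RIP libraries (2.03-fold). A gene was counted as called when it differed by at least 2-fold and its 95% interval for counting error excluded no difference. Reads copied by PCR are not independent molecules, so these intervals cover counting error only, and a second interval was widened by the scatter seen between the libraries in genes of like abundance. The widened intervals were 0.37 to 1.55 and 0.51 to 1.14 for Col4a1 and 0.48 to 2.36 and 0.60 to 1.43 for Col4a2, in inputs and RIP libraries. They describe precision and are no test, since Col4a2 was chosen on this contrast.

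The rest of the table gives the scale of such differences. Genes were put in classes of abundance 1 unit of mean log2 CPM wide, except that the lowest and the highest class were open-ended. The highest, which holds Fn1, took in all genes at 10 or more. The middle 95% of each class was taken as its range. For the 986 genes in the class of Col4a1 the log2 Usp5 guide over control ran from -0.60 to 0.50 in the inputs and from -0.39 to 0.40 in the RIP libraries. For the 1859 genes in the class of Col4a2 the ranges were -0.93 to 0.97 and -0.55 to 0.53. Both genes lay above both ranges. Of the 5126 abundant genes (mean log2 CPM 5 or more), 2 were called higher with the Usp5 guide in the RIP libraries, and Col4a2 was 1 of them. This is the comparison on which Col4a2 was picked, so its place there is not a result.

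**Figure D2:**
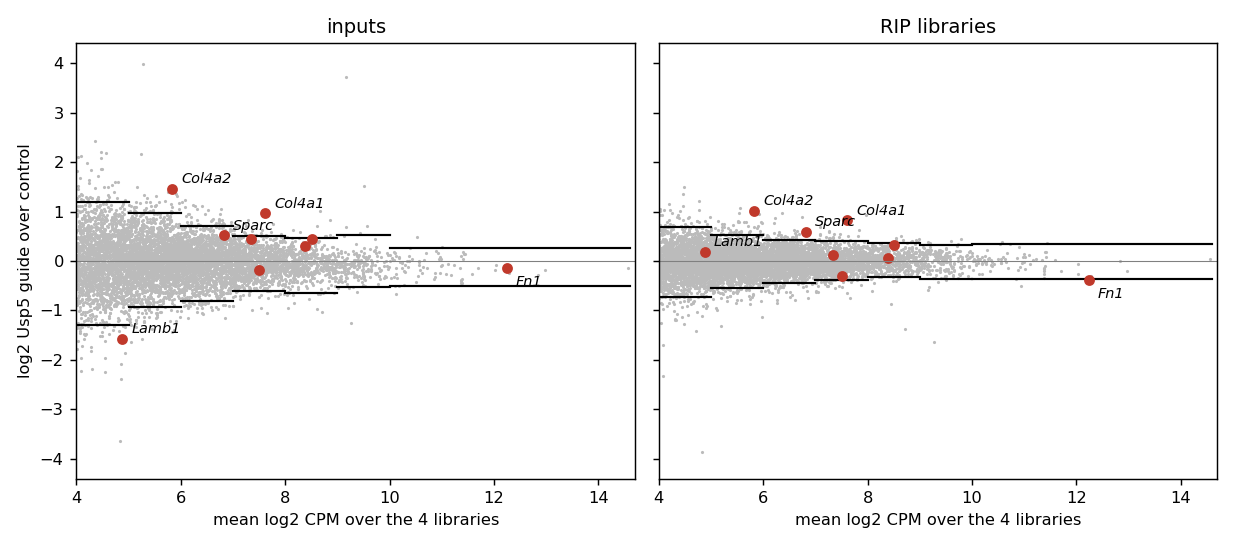
Log2 Usp5 guide over control against mean log2 CPM for all compared genes at a mean log2 CPM of 4 or more (grey), for the inputs (left) and the RIP libraries (right); black lines bound the middle 95% of each abundance class and red points are the 9 genes. Col4a1 and Col4a2 lie above the lines in both panels, and Lamb1 lies below them only in the inputs.

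The reads of Col4a1 per read of Col4a2 differed between libraries, but the intervals widened by the scatter between libraries all overlapped. There were 4.44 reads of Col4a1 for each read of Col4a2 in the control input (95% counting interval 4.11 to 4.81) and 3.16 in the Usp5-guide input (3.02 to 3.32). The RIP libraries had 3.34 (3.17 to 3.52) with the control guide and 2.93 (2.81 to 3.04) with the Usp5 guide. The control input stood highest (widened interval 2.28 to 8.66) and the Usp5-guide RIP lowest (2.35 to 3.64), the reverse of the order of the genes' levels. Col4a2 was picked for high counts with the Usp5 guide, which favours lower ratios there, so this order is not a result. These are ratios of reads, not of transcripts, since the genes differ in length and no transcript lengths were used here.

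The difference between the genes in log2 Usp5 guide over control, Col4a1 minus Col4a2, was -0.49 in the inputs (counting interval -0.62 to -0.36) and -0.19 in the RIP libraries (-0.29 to -0.10). With the scatter between libraries taken into account the intervals were -1.62 to 0.64 and -0.71 to 0.33. Col4a2 was picked for a high value in this same contrast, which favours a difference below 0, so these intervals give precision only.

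**Figure D3:**
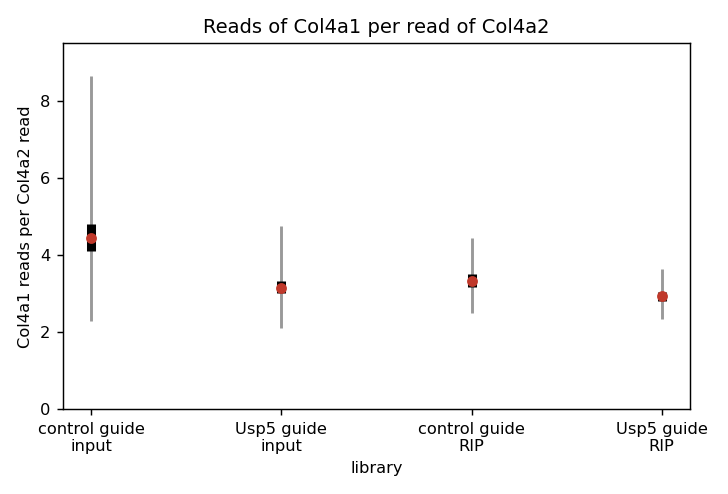
Reads of Col4a1 per read of Col4a2 in each of the 4 libraries (points), with 95% counting intervals (thick black) and intervals widened by the scatter between libraries (thin grey); the axis starts at 0. The values run from 2.93 to 4.44 and all 4 widened intervals overlap.

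The laminin chains did not move as one. Lamc1, the gamma chain of most laminins (chromosome 1, 153218922 to 153332786, with the pseudogene Gm8818 inside it), gave 10325 control and 15158 Usp5-guide reads in input (362 and 493 CPM), and 10064 and 11142 after RIP (282 and 352 CPM). Its log2 Usp5 guide over control was 0.45 and 0.32, inside the ranges of its class in both. Lama5, an alpha chain of adult epithelial and vascular basement membranes (chromosome 2, 180176373 to 180225904), gave 3877 control and 5722 Usp5-guide reads in input (135.9 and 186.0 CPM) and 5617 and 5463 after RIP (157.5 and 172 CPM); its log2 values of 0.45 and 0.13 were also inside. Lama1, the alpha chain typical of early embryonic basement membranes (chromosome 17, 67697127 to 67822645), was at 0 reads in all 4 libraries, which allows a level of up to 0.105 CPM in the shallowest of them after normalisation (3 counts).

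Lamb1, a beta chain (chromosome 12, 31265146 to 31329644), was the member whose inputs and RIP libraries differed most in what they showed. Its input reads were 1490 with the control guide and 539 with the Usp5 guide (52.2 and 17.5 CPM), a log2 ratio of -1.57 (widened interval -2.58 to -0.48), or 2.98-fold lower. The RIP libraries held 956 and 972 reads (26.8 and 30.7 CPM), a log2 ratio of 0.19 (-0.38 to 0.77). The input value lay below the range of its 1840-gene class (-1.29 to 1.19) and the RIP value inside it (-0.72 to 0.69). Inputs scattered more than RIP libraries in that class, 56.8 against 20.4 times the binomial variance; the part of this scatter in the Lamb1 value was not tested.

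Among the proteins that link or bind the networks, Nid1 and Hspg2 lay inside their class ranges and Sparc and Fn1 left them in the RIP libraries. Nid1 (chromosome 13, 13437602 to 13512275) gave 7235 control and 6894 Usp5-guide reads in input (253.5 and 224 CPM) and 5426 and 3908 after RIP (152.1 and 123 CPM). Its log2 Usp5 guide over control was -0.18 before and -0.30 after precipitation. Hspg2, whose product perlecan is a heparan sulfate proteoglycan (chromosome 4, 137468751 to 137570630), gave 5989 control and 8020 Usp5-guide reads in input and 16516 and 15255 after RIP, with log2 values of 0.31 and 0.06. All 4 values of these genes lay inside their class ranges. Sparc, a secreted glycoprotein that binds collagens including collagen IV (chromosome 11, 55394159 to 55420080), gave 3030 control and 4691 Usp5-guide reads in input (106.2 and 152.5 CPM) and 2894 and 3882 after RIP (81.1 and 122.5 CPM). Its log2 values were 0.52 and 0.59, inside the input range of its class and above the RIP range (-0.44 to 0.43). Fn1, by far the most read of the set (chromosome 1, 71585473 to 71653280), gave 128811 control and 125150 Usp5-guide reads in input (4514 and 4068 CPM) and 222116 and 151954 after RIP (6226 and 4795 CPM). Its product builds fibrils beside basement membranes rather than the sheet itself. Its log2 values were -0.15 and -0.38, and the second lay just below the range of the 81 most abundant genes (-0.37 to 0.35).

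**Figure D4:**
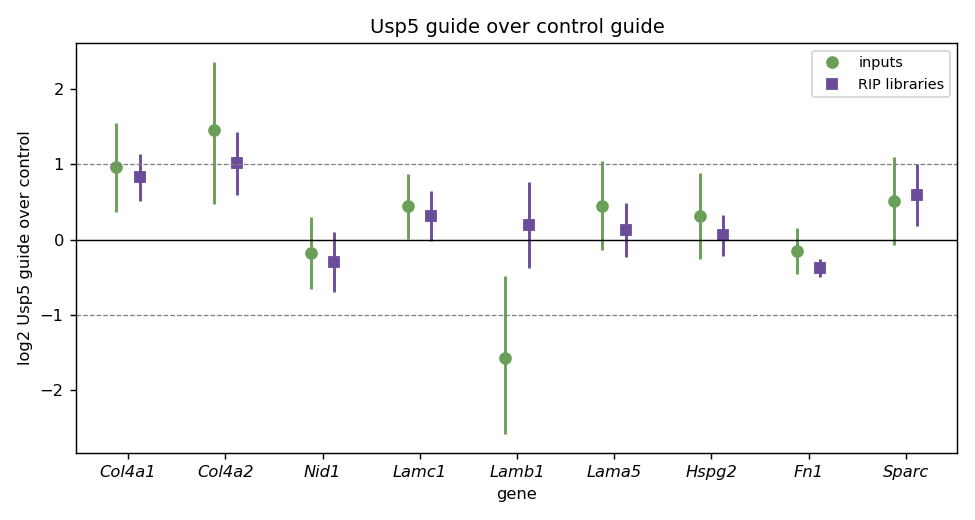
Log2 Usp5 guide over control guide for the 9 genes in the inputs (circles) and the RIP libraries (squares), with intervals widened by the scatter between libraries; dashed lines mark 2-fold. The values of Col4a1, Col4a2, Lamc1, Lama5, Hspg2 and Sparc are above 0 in both fractions. Nid1 and Fn1 are below 0 in both, and Lamb1 alone has values on opposite sides.

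Counted by size, 2 of the 9 genes were called in the inputs, Col4a2 higher and Lamb1 lower, beside 24.6% of all compared genes and 1.91% of the abundant ones, among which 8 of the 9 lie. With widened intervals the same genes were called, beside 1.66% of all. In the RIP libraries 1 of 9 was called, Col4a2, beside 9.17% of all genes, 0.117% of the abundant ones and 1.45% with widened intervals. These shares stand beside the counts without a reading, since Col4a2 was picked on these contrasts. The median log2 Usp5 guide over control was 0.45 over the 9 genes in the inputs and 0.19 in the RIP libraries, beside -0.01 in each over all compared genes. Without Col4a2 the medians were 0.38 and 0.16. The direction was the same in inputs and RIP libraries for 8 of the 9 genes, and for 7 of 8 without Col4a2, whose direction the choice fixed. It was the same for 52.2% of all compared genes and 53.4% of the abundant ones. The pairs share no library but come from the same lysates. All members were proposed with both contrasts known, so leaving out Col4a2 does not undo the choice. The medians and directions are therefore descriptions only.

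Recovery with YTHDF1 was measured as RIP over input, a contrast on which the members were not picked, although it uses the same libraries. Over both guides Hspg2, Col4a2 and Fn1 were enriched and Nid1 and Lamc1 depleted in the precipitate. The 4 libraries were fitted with terms for guide and for fraction in edgeR's quasi-likelihood test, with 1 residual degree of freedom, and p-values were adjusted by the Benjamini-Hochberg method over all 12927 genes. These 5 of 9 genes had an adjusted p under 0.05, beside 21.4% of all genes. In a fit of the 5126 abundant genes alone, 2757 genes passed, among them 6 of 8 members. The count among members is therefore not read as a result about them. Without the term for guide, or with the low-count filter at 10 reads, 2 of the 9 passed, Hspg2 and Nid1. A difference between the guides in recovery counts as error in this fit.

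Perlecan was the most enriched. Hspg2 had 2.02 times its input level over both guides (log2 1.01, edgeR adjusted p 0.000788), with log2 RIP over input of 1.14 for the control guide and 0.88 for the Usp5 guide. Nidogen was the most depleted. Nid1 stood at a log2 of -0.80 over both guides (edgeR adjusted p 0.00406), from -0.74 and -0.86. Both genes kept an adjusted p under 0.05 in all 6 alternative fits, at most 0.00762 for Hspg2 and 0.0194 for Nid1. Over both guides these network linkers lay at opposite ends of the 9 genes; with the control guide alone Lamb1, at -0.96, was lower than Nid1.

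The point values of both collagen IV genes were above input with each guide, but their widened intervals reached or took in 0. With the control and the Usp5 guide these were -0.05 to 1.04 and -0.03 to 0.75 for Col4a1. For Col4a2 they were 0.0 to 1.76 and -0.07 to 1.01. Col4a2 had a log2 RIP over input of 0.91 for the control guide and 0.47 for the Usp5 guide, and 0.69 over both (edgeR adjusted p 0.0456). Col4a1 had 0.50 and 0.36, and 0.43 over both (edgeR adjusted p 0.0577). The pair differed by 0.41 in the control cells, in favour of Col4a2, with a widened interval of Col4a1 minus Col4a2 from -1.46 to 0.64, and by 0.11 in the Usp5-guide cells (-0.78 to 0.55). Neither call is firm: over the alternative fits the adjusted p ran from 0.00869 to 0.466 for Col4a2 and from 0.0156 to 0.495 for Col4a1. One lying under 0.05 and the other over it does not show that they differ.

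Fn1 was above input with either guide, at log2 values of 0.46 and 0.24 and 0.35 over both (edgeR adjusted p 0.0102; 0.00105 to 0.115 in the alternative fits). Lamc1 was below input, at -0.36 and -0.49 and -0.42 over both (adjusted p 0.0386; 0.0107 to 0.179). Sparc, at -0.39 and -0.32, did not pass (adjusted p 0.175). Lama5 had 0.21 with the control guide and -0.11 with the Usp5 guide, and Lamb1 -0.96 and 0.81. The adjusted p was 0.861 for Lama5 and 0.914 for Lamb1. All 9 genes lay inside the middle 95% of their abundance class in RIP over input with each guide. The calls of Col4a2, Fn1 and Lamc1 were lost with the low-count filter at 10 reads and without the term for guide, those of Col4a2 also with DESeq2 size factors (0.0517) and DESeq2's Wald test (0.0564), and that of Lamc1 also with library totals (0.179).

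**Figure D5:**
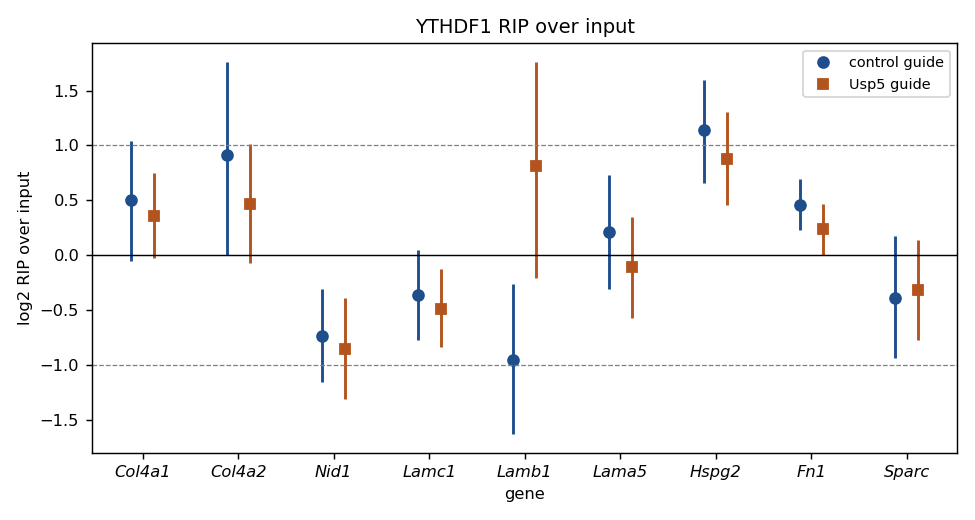
Log2 YTHDF1 RIP over input for the 9 genes with the control guide (circles) and the Usp5 guide (squares), with intervals widened by the scatter between libraries; dashed lines mark 2-fold. Hspg2 is highest with either guide (1.14 and 0.88), Nid1 is below 0 with both, and Lamb1 changes sides between the guides.

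By size, 1 of the 9 genes was called in RIP over input with the control guide, Hspg2, beside 33.4% of all compared genes (13.8% with widened intervals). Of the 5126 abundant genes, 1016 were called with the control guide and 750 with the Usp5 guide. With the Usp5 guide 0 of 9 were called, beside 29.6% (10.5% widened); Hspg2 at 1.85-fold and Nid1 at 1.82-fold were nearest. The direction was the same with both guides for 7 of the 9, with 4 above and 3 below input, or 77.8%, beside 72.4% of all compared genes and 83.9% of the abundant ones.

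Whether recovery differed between the guides was described by the ratio of the enrichments, which uses all 4 libraries. It was below 1 for 7 of the 9 genes (6 of 8 without Col4a2), beside 6501 of all 12927 compared genes. The log2 values of these 7 ran from -0.44 (Col4a2) to -0.12 (Nid1), each with a widened interval that included 0. This ratio is built from the guide contrasts known when the members were proposed, so its counts are descriptions only. For Col4a1 it was -0.14 (widened interval -0.80 to 0.53) and for Col4a2 -0.44 (-1.44 to 0.62). Lamb1 was the exception in size, at 1.77 (0.52 to 2.92) or 3.41-fold, and the only member called, beside 27.2% of all genes and 1.55% with widened intervals. Of the pairs behind it, the inputs differed 2.98-fold and the RIP libraries 1.14-fold.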

How the data were processed

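Per the labels' protocols, input and RIP RNA were depleted of ribosomal RNA and made into libraries by random priming, template switching and PCR. The deposited values are unnormalised whole-number counts of reads for each gene. Per the submitters' processing notes, HISAT2 2.1.0, featureCounts 1.6.3 and mm10 were used; for the annotation, strand and duplicates nothing is stated there. Columns were matched to samples by their short names, and 0 columns were left over.

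Counts were normalised with TMM factors from 0.926 to 1.06 (edgeR 4.0.16, R 4.3.3). Before log2 ratios, 0.5 counts were added, scaled by library size. Counting intervals of a gene's ratio between single libraries were Clopper-Pearson's. Those of the Col4a1 and Col4a2 pair and of the ratio of enrichments were normal intervals from the sum of reciprocal counts. For widened intervals, the squared deviation between the inputs, or the RIP libraries, was divided by the binomial variance. Its median per abundance class, over the median of a chi-square distribution, gave the scatter (between 15.4 and 749 times). This scatter multiplied the counting variance. For single genes 0.5 times the scatter, the larger where fractions differ, was also added to the counts, so these intervals are not centred on the printed ratio. The scatter includes any change with the guide. RIP over input was tested across all genes with edgeR's quasi-likelihood test; DESeq2 1.42.0 was an alternative. The code was tested on simulated data. Promoter windows and positions are from RefSeq tables (GRCm38.p6), which held windows for 7 of the 10 genes.

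The members, lists and tests were chosen with earlier results of these data known. All 10 members are named by rule. Gene lists for other matrix, receptor and marker genes, genes of like pattern, other head-to-head pairs and levels per length need names or lengths by Ensembl ID and were not analysed here. P-values measure only the spread between these libraries.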

Additional observations from a re-analysis of the deposited data

Results flagged for a closer look

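Lamb1 and Lama5 had RIP over input on opposite sides of 0 with the control and the Usp5 guide, by counting intervals. The widened intervals of Lamb1 were -1.63 to -0.26 with the control guide and -0.21 to 1.76 with the Usp5 guide. Those of Lama5 took in 0 with both guides (-0.31 to 0.73 and -0.57 to 0.35). For Lamb1 the log2 ratio of enrichments, Usp5 guide over control, was 1.77, from -0.96 and 0.81. For Lama5 it was -0.32, from 0.21 and -0.11, and with library totals the second value was 0.02. The difference between the guides was not tested, since each gave 1 lysate.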

How the results depend on the processing

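The 355 member ratios kept their sign, except Lama5 in RIP over input with the Usp5 guide, which was -0.11 and became 0.02 with library totals. No shift was over 0.19 and no member called by size lost its call. Only the scaling and added-count settings could move a ratio, and the 1.5-fold size could not remove a call. Library totals moved the median log2 RIP over input of all genes from 0.03 to 0.21 (control guide) and from 0.02 to 0.15 (Usp5 guide), and the share of called genes that were enriched from 54.5% to 65.9%; in edgeR's test that share went from 47.4% to 63.5%. Numbers of called genes follow in the order control RIP over input, Usp5-guide RIP over input, inputs, RIP libraries, ratio of enrichments. They were 4323, 3829, 3180, 1186 and 3512. Restriction to abundant genes (mean log2 CPM 5 or more) gave 1016, 750, 98, 6 and 134, widened intervals 1785, 1363, 215, 188 and 201, and 1.5-fold 7252, 6736, 5170, 2505 and 5483. With at least 10 reads the first 4 were 7478, 6990, 5616 and 4180. Among members, RIP over input with the control guide had 2 called with DESeq2 size factors (Lamb1 added), 2 with library totals (Col4a2 added) and 4 at 1.5-fold. With the Usp5 guide 1 was called with library totals (Hspg2) and 3 at 1.5-fold, and in the RIP libraries 3 at 1.5-fold. In the inputs Col4a1 was added with library totals (log2 1.04, 3 called) and at 1.5-fold. Among abundant genes, where Lamb1 drops out, 1 was called in the inputs and 0 in the ratio of enrichments. Widened intervals left Col4a1 minus Col4a2 at -0.49 and -0.19 but took in 0. In edgeR's test, the fit with no replicate block (fraction alone, without the guide) and the filter at 10 reads each called 2 members, Hspg2 and Nid1, in place of 5; with 1 guide left out no test remains, and the 5 called members kept their direction with either guide. Lama1 alone had 0 reads. Col4a2 and Lamb1 had 769 and 539 reads in their lower input. Their widened intervals in the inputs were broad, at 0.48 to 2.36 and -2.58 to -0.48.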
